A study of Mus musculus with 15 samples.

Results

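Ileal epithelium moves salt in both directions, and 9 genes of that traffic were followed here in ileal organoids: Cftr, Slc12a2, Kcne3, Kcnq1 and Kcnn4 on the side of chloride secretion, and Slc26a3, Slc26a6, Slc9a2 and Slc9a3 on the side of sodium and chloride absorption. They are 9 of the 23420 gene symbols in each file, and all 9 were among the 13159 that passed the filter on low counts. The set was assembled by name, and Kcne3 was chosen by its measured level, because it had been seen to fall in H10 against vehicle. For Kcne3 every comparison that holds vehicle or H10 libraries is therefore a description without a test. Its tests among M10, M90 and H90 may not be free of that choice, since the members were chosen with earlier results of these data known. The organoids were crypt-derived cultures of C57BL/6 mouse ileum at passage 2, split on day 10 and treated on day 14 for 24 h in DMEM with 0.2% BSA, after they had been broken open so that the medium reached the lumen. Groups of 3 libraries (a, b and c) received vehicle, a human-like pool of bile acids with 10% (H10) or 90% (H90) of its bile acids 12α-hydroxylated, or a mouse-like pool with 10% (M10) or 90% (M90). Which bile acids each pool held, and at what dose, is not given in the sources used here, so pools are compared as mixtures. The labels do not state whether libraries a to c stem from different animals or cultures. The p-values then measure only the spread between these libraries, which may be technical.

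In secreting cells the cotransporter NKCC1, encoded by Slc12a2, brings sodium, potassium and chloride in across the basolateral membrane, and chloride leaves into the lumen through the apical channel CFTR. Basolateral potassium channels recycle the potassium and keep the cell negative, which drives chloride out: KCNQ1 with its β subunit KCNE3 does so when cAMP rises, and KCNN4 when calcium rises. Absorbing cells take up sodium in exchange for protons through NHE3 (Slc9a3) and NHE2 (Slc9a2), coupled to chloride uptake in exchange for bicarbonate through DRA (Slc26a3) and PAT1 (Slc26a6). Secretion is classically placed in the crypts and absorption in villus enterocytes, and some bile acids are known to provoke chloride secretion in the large intestine.

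The members do not share a start-site layout. Of the 9, 6 had entries in the RefSeq promoter table (GRCm38.p6), and the stretch from base 250 to base 11 before the annotated start is shown for a pair from the secretory side (Cftr and Kcne3) and a pair from the absorptive side (Slc26a3 and Slc9a3), to show how different their sequence is. The windows lie on the plus strand at chr6:18170437-18170676 (Cftr), chr7:100178433-100178672 (Kcne3, the downstream of its 2 listed starts), chr12:31437969-31438208 (Slc26a3) and chr13:74121163-74121402 (Slc9a3), and capitals mark matches on either strand to the motifs listed after them.
Cftr: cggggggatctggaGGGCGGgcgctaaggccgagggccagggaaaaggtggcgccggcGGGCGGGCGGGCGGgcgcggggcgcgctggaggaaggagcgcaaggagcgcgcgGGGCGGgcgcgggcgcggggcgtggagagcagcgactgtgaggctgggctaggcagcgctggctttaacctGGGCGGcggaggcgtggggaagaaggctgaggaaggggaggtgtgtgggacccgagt
Kcne3: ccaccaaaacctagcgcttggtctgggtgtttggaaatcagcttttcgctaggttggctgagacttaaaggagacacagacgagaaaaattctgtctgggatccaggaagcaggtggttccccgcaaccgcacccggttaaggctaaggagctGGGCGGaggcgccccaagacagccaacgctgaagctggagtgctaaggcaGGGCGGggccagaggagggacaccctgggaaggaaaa
Slc26a3: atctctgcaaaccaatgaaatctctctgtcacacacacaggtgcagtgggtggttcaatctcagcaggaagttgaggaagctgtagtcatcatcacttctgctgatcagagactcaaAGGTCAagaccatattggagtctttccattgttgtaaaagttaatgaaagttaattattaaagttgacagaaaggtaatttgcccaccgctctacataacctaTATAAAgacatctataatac
Slc9a3: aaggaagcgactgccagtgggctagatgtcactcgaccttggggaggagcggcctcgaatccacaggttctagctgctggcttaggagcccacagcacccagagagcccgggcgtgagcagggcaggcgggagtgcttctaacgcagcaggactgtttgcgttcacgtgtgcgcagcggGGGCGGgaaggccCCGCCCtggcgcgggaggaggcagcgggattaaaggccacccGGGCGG

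The GC box letters GGGCGG occur 6 times in the Cftr window, some of them overlapping, 2 times in that of Kcne3, 3 times in that of Slc9a3 and 1 time in that of Slc26a6. They occur in 31.3% of 32851 windows of this length over all listed starts. Slc26a3 has the TATA box TATAAA 30 bases before its start, which 12.1% of all windows hold, and the nuclear receptor hexamer AGGTCA 133 bases before it, which 13.5% hold. The hexamer is absent from the windows of the other members searched. TTTATG (10.5% of windows), CAAAGTCCA (0.365%) and the inverted repeat of AGGTCA with 1 base between the copies, to which FXR binds (0.00609%), matched no member window, the upstream start of Kcne3 and the start of Kcnn4 included. GC content was 75.8% for Cftr, 67.1% for Slc9a3, 57.5% for Kcne3 and 38.8% for Slc26a3. The window of the upstream Kcne3 start, not shown, differed from the downstream one, with a GC content of 47.5% and no GGGCGG. These are descriptions of letters and not of binding.

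Across the series, libraries held 11245807 to 28989526 counts. Mup20, a liver transcript, split them into 7 libraries with 23.0 to 35.9 CPM (set 1: vehicle, H10 and H90 a) and 8 with 0.356 to 0.583 CPM (set 2: M10, M90, and libraries b and c of H90). The labels give no batch for this split. H10 against vehicle and M90 against M10 lie within a set, and the other comparisons cross the sets. H90 a also stood apart in ribosomal precursor RNA (Rn45s, 14143 CPM against 1739 to 3215 CPM elsewhere). As a check of the tissue label, 10 enterocyte markers summed to 12720 to 34169 CPM per library. The 7 mesenchymal markers summed to 3.32 to 5.42 CPM in vehicle, 3.38 to 4.70 in H10, 4.39 to 15 in H90, 9.42 to 12.2 in M10 and 8.21 to 12.9 in M90. The 6 neuron and glia markers summed to 16.0 to 20.2 CPM in vehicle, 24.8 to 28.2 in H10, 21.2 to 27.5 in H90, 34.6 to 42.7 in M10 and 35.1 to 41.7 in M90, and 1 of the 2 tested was higher in each pool. The 6 immune markers summed to 5.47 to 10.1 CPM. The part of these other cell types in the results was not tested. Scaling was by TMM. Scaled by library size alone, the median of all genes moved from -0.00 to -0.13 on the log2 scale in H10 against vehicle, from -0.03 to -0.29 in M10 and from -0.02 to -0.17 in M90. The share of called genes that were higher moved from 49.5% to 33.3%, from 48.4% to 29.5% and from 47.9% to 31.9% in these, and from 54.3% to 42.5% in H90.

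Against vehicle the question is what each pool did to each side of salt transport. The secretory genes other than Kcne3 fell in all 4 pools, except that Kcnn4 did not pass in H90, and Slc26a3 and Slc9a2 rose in all 4. In M10, where changes were largest for most members, Cftr was 9.68-fold and Kcnn4 15.6-fold below vehicle while Slc9a2 was 2.23-fold and Slc9a3 2.01-fold above it. By edgeR's quasi-likelihood test, with Benjamini-Hochberg adjustment over all 13159 genes and adjusted p under 0.05 as a call, 3 of 8 tested members were higher and 4 lower in H10, where 48.5% of all genes were called, 24.0% higher and 24.5% lower. In H90 the count was 2 higher and 4 lower (21.6% of all genes, 11.7% and 9.86%). In M10 it was 4 and 4 (64.5% of all genes, 31.2% and 33.3%), and in M90 3 and 4 (54.7%, 26.2% and 28.5%). All 4 contrasts share the vehicle libraries. The median log2 change of the 8 was -0.76 in M10, -0.71 in H10, -0.59 in M90 and -0.25 in H90, against -0.00 to -0.03 over all genes. In each pool this median lies in the gap between the tested secretory genes and the absorptive genes. It describes neither side and is not a shift of the set as a whole.

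**Figure D1:**
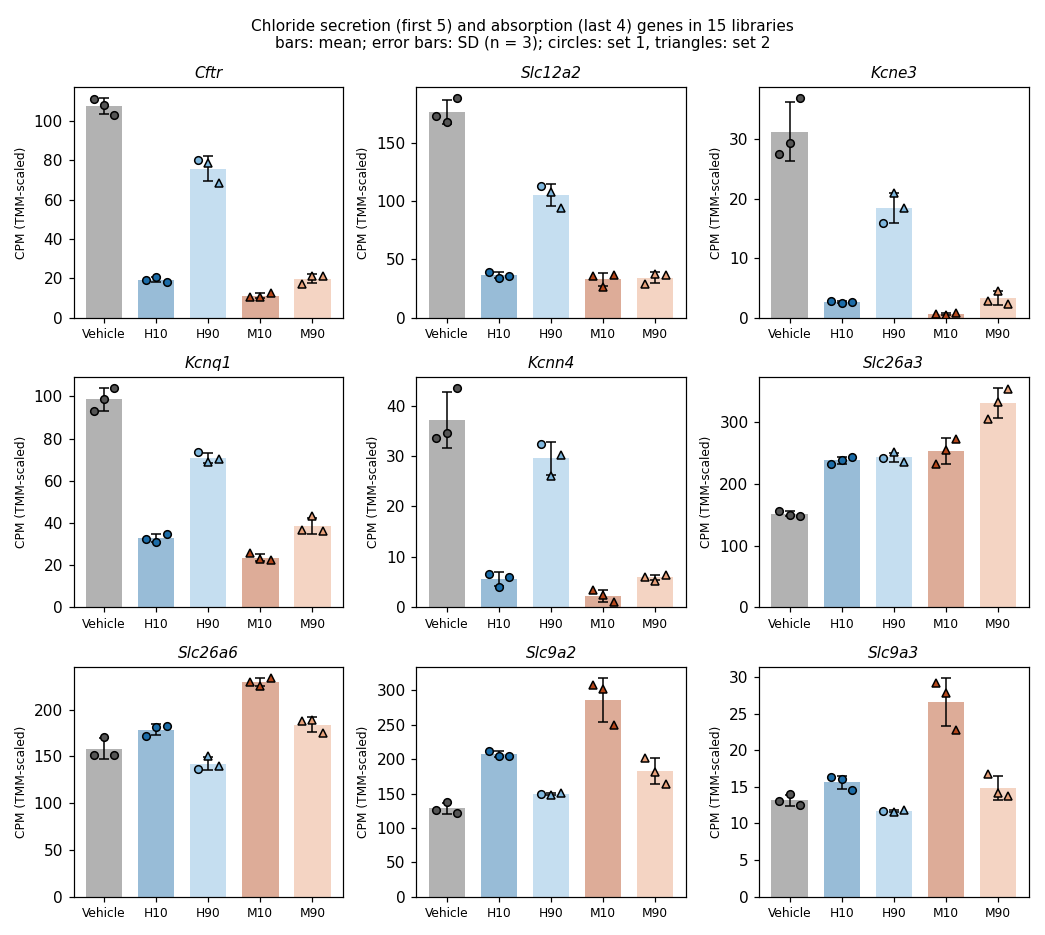
TMM-scaled CPM (vertical axes, from 0) of the 9 genes in vehicle and the 4 pools; bars are means, error bars SD (n = 3), circles libraries of set 1 and triangles libraries of set 2. The 5 secretory genes stand highest in vehicle and next highest in H90, and Slc26a3 stands highest in M90 while Slc26a6, Slc9a2 and Slc9a3 stand highest in M10.

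**Figure D2:**
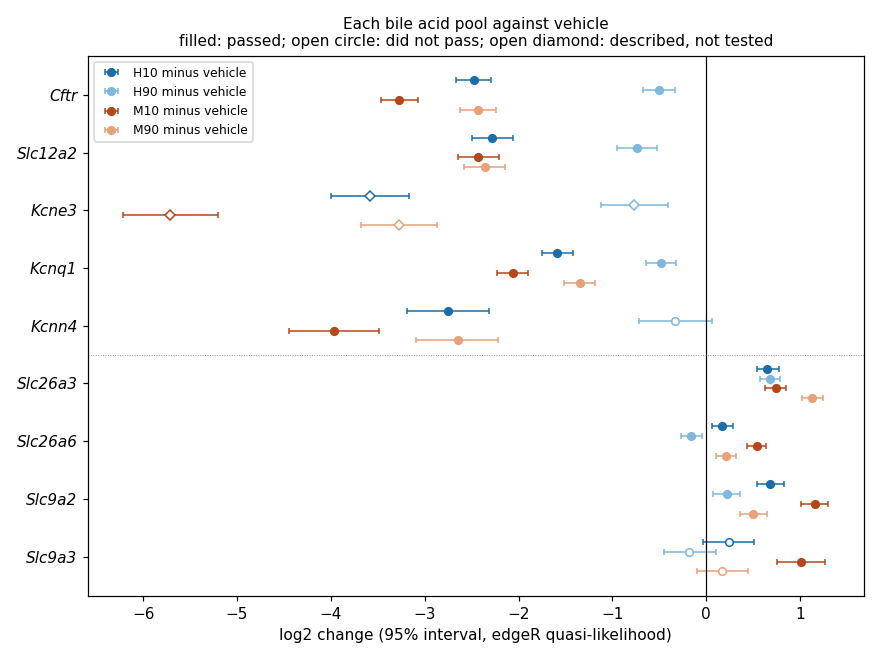
Log2 change of each gene in each pool against vehicle (horizontal axis) with its 95% interval; filled circles passed the test, open circles did not, and open diamonds mark Kcne3, which was described and not tested. Points of the secretory genes (above the dotted line) lie left of 0 and reach -5.71 for Kcne3 in M10, while those of the absorptive genes lie between -0.18 and 1.16.

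Cftr, the apical chloride channel, had 111, 108 and 103 CPM in vehicle a to c and 80.0, 78.8 and 68.2 CPM in H90. It had 19.2, 20.6 and 18.2 CPM in H10, 17.2, 20.9 and 21.4 CPM in M90 and 10.5, 10.3 and 12.6 CPM in M10. Vehicle lay above every treated library, H90 stood between vehicle and the other pools, H10 and M90 overlapped, and M10 lay below all. The log2 change was -2.48 (SE 0.0935, adjusted p = 1.14e-22) in H10 and -0.50 (SE 0.0852, adjusted p = 2.39e-05) in H90. With the mouse-like pools it was -2.43 (SE 0.0928, adjusted p = 9.23e-23) for M90 and -3.27 (SE 0.0986, adjusted p = 2.32e-26) for M10.

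Slc12a2, the basolateral cotransporter that loads chloride, had 173, 168 and 188 CPM in vehicle and 113, 108 and 94.3 CPM in H90. In H10, M10 and M90 it had 39.2, 34.4 and 35.5, then 35.3, 26.4 and 36.4, then 28.9, 37.6 and 36.4 CPM. Unlike Cftr, its levels in these 3 pools overlapped one another, and all of them lay below H90. Its log2 change from vehicle was -2.43 (SE 0.107, adjusted p = 2.42e-15) in M10 and -2.36 (SE 0.106, adjusted p = 8.88e-15) in M90. In the human-like pools it was -2.28 (SE 0.106, adjusted p = 2.07e-14) with H10 and -0.74 (SE 0.0993, adjusted p = 6.51e-06) with H90.

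Kcne3, the β subunit that holds KCNQ1 open in intestinal epithelium, had 27.6, 29.4 and 36.9 CPM in vehicle and 15.9, 20.9 and 18.5 CPM in H90. It had 2.80, 2.44 and 2.59 CPM in H10, 2.86, 4.56 and 2.27 CPM in M90 and only 0.651, 0.427 and 0.713 CPM in M10, where the counts were 17, 10 and 14. The order was the same as for Cftr, with H10 and M90 overlapping and no other groups doing so. The log2 differences from vehicle, of which that in H10 chose the gene and the others share its controls, were -5.71 in M10, -3.58 in H10, -3.27 in M90 and -0.77 in H90 (SEs 0.249, 0.206, 0.199 and 0.174). Ordered from the most negative among 13159 genes they ranked 83, 16, 38 and 454. With library set as a term they were -6.02, -3.58, -3.59 and -0.98.

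Kcnq1, the pore subunit of the same channel, had 93.2, 98.6 and 104 CPM in vehicle and 73.5, 68.9 and 70.3 CPM in H90. It had 36.5, 43.1 and 36.3 CPM in M90, 32.5, 31.0 and 34.8 CPM in H10 and 25.6, 22.7 and 22.4 CPM in M10, and none of the 5 groups overlapped another. Its log2 change was -2.06 (SE 0.0836, adjusted p = 2.38e-22) in M10 and -1.35 (SE 0.0804, adjusted p = 5.15e-17) in M90. In the human-like pools it was -1.59 (SE 0.0817, adjusted p = 1.01e-18) with H10 and -0.48 (SE 0.0784, adjusted p = 1.38e-05) with H90. The transcript ratio of β to pore subunit, as counts per kb of annotated exon, was 0.682, 0.686 and 0.813 in vehicle and 0.499, 0.699 and 0.606 in H90. It was 0.198, 0.181 and 0.171 in H10, 0.181, 0.244 and 0.144 in M90 and 0.0585, 0.0433 and 0.0732 in M10. The ratio thus went from 0.727 ± 0.0746 (SD, n = 3) in vehicle to 0.0583 ± 0.0149 in M10, overlapping vehicle in H90 and not in the other pools. It holds Kcne3 and is given without a test.

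**Figure D3:**
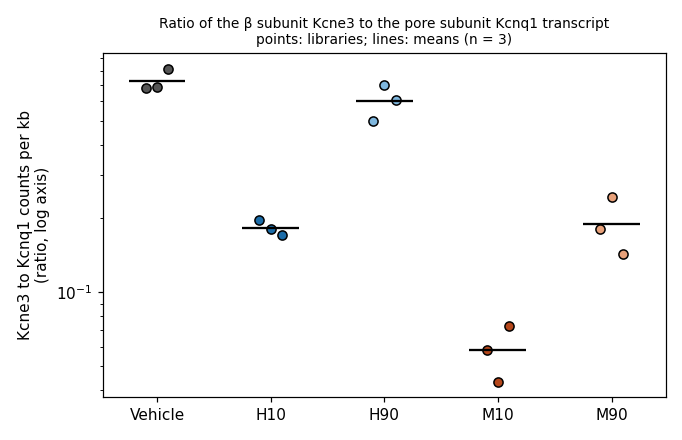
Ratio of Kcne3 to Kcnq1 transcript (counts per kb of exon, log axis) in each library by group, with the mean of 3 libraries as a line. Vehicle and H90 lie at 0.499 to 0.813, H10 and M90 at 0.144 to 0.244, and M10 at 0.0433 to 0.0732.

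Kcnn4, the calcium-activated potassium channel, had 33.5, 34.5 and 43.5 CPM in vehicle and 32.4, 26.0 and 30.2 CPM in H90, ranges that lie side by side without overlap. In H10 it had 6.63, 3.95 and 5.96 CPM, in M90 6.03, 5.30 and 6.37 CPM and in M10 3.41, 2.43 and 1.07 CPM, where the counts were 89, 57 and 21. M10 gave a log2 change of -3.97 (SE 0.232, adjusted p = 8.10e-14) and H10 one of -2.75 (SE 0.212, adjusted p = 4.44e-11). For M90 it was -2.65 (SE 0.209, adjusted p = 5.99e-11). In H90 the value was -0.33 (95% interval -0.72 to 0.06, adjusted p = 0.234), which limma-voom called (adjusted p = 0.0355) and 26 other alternatives did not.

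Crypt stem cell and proliferation markers were lower beside the secretory genes. The 10 proliferation markers summed to 1142 to 1200 CPM in vehicle, 761 to 873 in H90, 271 to 281 in H10, 254 to 272 in M90 and 129 to 133 in M10. All 10 fell in each pool. The 7 crypt and stem cell markers summed to 269 to 302 CPM in vehicle, 149 to 158 in H90, 74.1 to 82.7 in H10, 66.7 to 73.6 in M90 and 85.1 to 90.2 in M10, and 7, 5, 7 and 6 of them fell in H10, H90, M10 and M90. Paneth cell markers went the other way. They summed to 68.5 to 94.9 CPM in vehicle, 135 to 139 in H90 and 172 to 191 in H10. In M90 and M10 the sums were 158 to 195 and 194 to 214 CPM. Of the 6 tested, 6 rose in H10, H90 and M90 and 5 in M10. The part of these changes in the fall of the secretory genes was not tested. In organoid RNA as a whole, fewer cells of a type and less transcript per cell cannot be told apart.

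Slc26a3, the chloride and bicarbonate exchanger of the apical membrane, had 156, 150 and 148 CPM in vehicle. It had 232, 239 and 243 CPM in H10, 242, 251 and 235 CPM in H90, 232, 255 and 273 CPM in M10 and 305, 333 and 354 CPM in M90. All 12 treated libraries lay above vehicle, M90 lay above the rest, and the other 3 pools overlapped. The log2 change was 0.74 (SE 0.0548, adjusted p = 1.13e-14) in M10 and 1.13 (SE 0.0549, adjusted p = 1.37e-19) in M90. In the human-like pools it was 0.65 (SE 0.0549, adjusted p = 1.01e-12) with H10 and 0.68 (SE 0.0551, adjusted p = 2.39e-12) with H90. Among the 8 tested members it had the largest change in H90 after Slc12a2, with a 1.60-fold rise.

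Slc9a2, the sodium and proton exchanger NHE2, had 126, 138 and 122 CPM in vehicle and 150, 148 and 151 CPM in H90. It had 202, 181 and 164 CPM in M90, 212, 205 and 204 CPM in H10 and 308, 302 and 250 CPM in M10, with no overlap between any 2 groups. Its log2 change was 1.16 (SE 0.0701, adjusted p = 2.09e-14) in M10, 0.68 (SE 0.0701, adjusted p = 3.06e-09) in H10 and 0.50 (SE 0.0701, adjusted p = 6.31e-07) in M90. In H90 the change of 0.22 (SE 0.0709, adjusted p = 0.0259) is a call that ended without vehicle a (adjusted p = 0.0980), vehicle c (0.137) or any of H90 a, b and c (0.0692, 0.0609 and 0.106). It also ended with limma-voom (0.0619), with library set as a term (0.213) and with H90 a alone (0.282).

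Slc9a3, the exchanger NHE3 that carries most sodium uptake of the small intestine, had the lowest level per kb of the 4 absorptive genes. It had 13.0, 14.0 and 12.5 CPM in vehicle, 16.3, 16.0 and 14.6 in H10, 11.7, 11.5 and 11.9 in H90, 29.1, 27.8 and 22.8 in M10 and 16.7, 14.2 and 13.7 in M90. M10 stood above all other groups, and only there did the gene pass, with 1.01 (SE 0.130, adjusted p = 1.41e-08). The values were 0.24 (95% interval -0.03 to 0.51, adjusted p = 0.137) in H10, 0.17 (95% interval -0.10 to 0.44, adjusted p = 0.291) in M90 and -0.18 (95% interval -0.45 to 0.10, adjusted p = 0.399) in H90.

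Slc26a6, the second apical anion exchanger, had the smallest changes of the tested members in H10, H90 and M10 and was the one whose called changes went both ways. It had 152, 171 and 152 CPM in vehicle, 172, 181 and 183 in H10, 137, 150 and 140 in H90, 230, 225 and 234 in M10 and 188, 189 and 175 in M90. It rose in M10 by 0.54 (SE 0.0535, adjusted p = 3.94e-11). The rise in H10 was 0.17 (SE 0.0537, adjusted p = 0.00739) and that with M90 0.21 (SE 0.0536, adjusted p = 9.36e-04), and neither was called when scaled by library size alone (0.04 and 0.06, adjusted p = 0.539 and 0.324). That in H10 also ended with upper-quartile scaling (adjusted p = 0.0798), and that in M90 with library set as a term (0.351). The fall in H90, -0.16 (SE 0.0544, adjusted p = 0.0356), ended without vehicle b (-0.10, adjusted p = 0.275), H90 a (-0.13, 0.132) or H90 c (-0.15, 0.0817). It also ended with library set as a term (0.0821), in a fit of the 2 groups alone (0.117) and with H90 a alone (0.0620).

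Enterocyte markers were higher in M10, M90 and H10, and overlapped vehicle in their sum in H90. The 10 summed to 12720 to 14932 CPM in vehicle, 14470 to 15323 in H90, 20293 to 20806 in H10, 23301 to 24726 in M90 and 32796 to 34169 in M10. Of the 10, 9 rose in H10, 6 in H90 (where 2 fell), 10 in M10 and 8 in M90. A separate list of 4 ileal enterocyte markers summed to 352 to 360 CPM in vehicle and 5562 to 6639 in H90. In H10, M10 and M90 the sums were 8666 to 9485, 9080 to 9930 and 12780 to 13051 CPM. Of these 4, 3 rose in H10, H90 and M90 and 4 in M10, and 1 fell in H90 and in M90. Goblet cell markers, 7 in all, summed to 1210 to 1236 CPM in vehicle, 1915 to 2070 in H90 and 3772 to 3965 in H10. In M90 and M10 their sums were 3481 to 3834 and 7209 to 8166 CPM. Of the 7, 6 rose in each pool, and 1 fell in H90 and in M90. The part of cell type in the rise of the absorptive genes was not tested.

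Per kb of annotated exon, a rough scale across genes, Slc26a6 stood first in vehicle with a level of 29.2 CPM per kb. Kcnq1 (24.1), Slc26a3 (23.7), Slc9a2 (18.5), Kcne3 (17.6), Slc12a2 (16.1), Cftr (13.8), Kcnn4 (7.27) and Slc9a3 (2.40) followed. In M10 the first 3 were all absorptive, Slc26a6 (42.5), Slc9a2 (41.1) and Slc26a3 (39.7), ahead of Kcnq1 (5.77) and Slc9a3 (4.83). Slc12a2 (2.99), Cftr (1.43), Kcnn4 (0.450) and Kcne3 (0.336) came last there. The ratio of Cftr to Slc26a3, chloride exit against chloride uptake at the apical membrane, was 0.584, 0.592 and 0.569 in vehicle, 0.271, 0.258 and 0.238 in H90, and 0.0680, 0.0705 and 0.0614 in H10. It was 0.0461, 0.0516 and 0.0497 in M90 and 0.0370, 0.0332 and 0.0379 in M10, and no 2 groups overlapped. Exon lengths are from GENCODE vM21, since the annotation used for counting was not given in the sources used here. They merge all annotated exons of a gene, whichever transcripts were expressed, so close ranks and the absolute ratios between genes are approximate.

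Comparing the 90% with the 10% pool of a species model compares mixtures named by their 12α-hydroxylated share, whose other contents and doses are not given. With the higher share the secretory genes stood nearer to vehicle, except Slc12a2 in the mouse-like pools, which did not pass. Against H10, 4 of 8 tested members were higher in H90 (18.2% of all genes were) and 3 lower (18.4%, and 36.6% either way). The higher were Cftr by 1.98 (SE 0.0939, adjusted p = 1.10e-18), Slc12a2 by 1.54 (SE 0.106, adjusted p = 8.19e-11), Kcnq1 by 1.11 (SE 0.0825, adjusted p = 1.61e-13) and Kcnn4 by 2.42 (SE 0.213, adjusted p = 1.41e-09) on the log2 scale. The difference of Kcne3, not tested, was 2.82 (SE 0.207). Slc9a2 was lower, at -0.47 (SE 0.0703, adjusted p = 4.89e-06) and so was Slc26a6, at -0.33 (SE 0.0544, adjusted p = 6.32e-06). Slc9a3 was lower, at -0.42 (SE 0.136, adjusted p = 0.0143), a call lost without H10 a (adjusted p = 0.0536), with library set as a term (0.111), with H90 a alone (0.100) and with library size as the only scaling (0.0584). Slc26a3 did not pass, at 0.03 (95% interval -0.08 to 0.14, adjusted p = 0.724).

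In the mouse-like pools, which share a library set, 5 of 9 members were higher in M90 than in M10 (21.3% of all genes were) and 3 lower (20.0%, and 41.2% either way). Kcne3 was 5.41-fold higher, at 2.44 (SE 0.282, adjusted p = 5.17e-09), in a comparison without vehicle or H10 libraries. Since earlier results of these data were known when it was chosen, this p-value may not be free of that choice. Kcnn4 was higher by 1.31 (SE 0.249, adjusted p = 1.25e-04), Cftr by 0.84 (SE 0.103, adjusted p = 1.59e-08) and Kcnq1 by 0.71 (SE 0.0849, adjusted p = 1.01e-08). Slc12a2 did not pass, at 0.07 (95% interval -0.15 to 0.30, adjusted p = 0.630). Slc26a3, alone of the absorptive genes, was higher, by 0.38 (SE 0.0538, adjusted p = 2.50e-07). The other absorptive genes were lower, Slc9a3 at -0.84 (SE 0.129, adjusted p = 1.38e-06), Slc9a2 at -0.65 (SE 0.0690, adjusted p = 1.01e-08) and Slc26a6 at -0.32 (SE 0.0532, adjusted p = 5.15e-06).

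**Figure D4:**
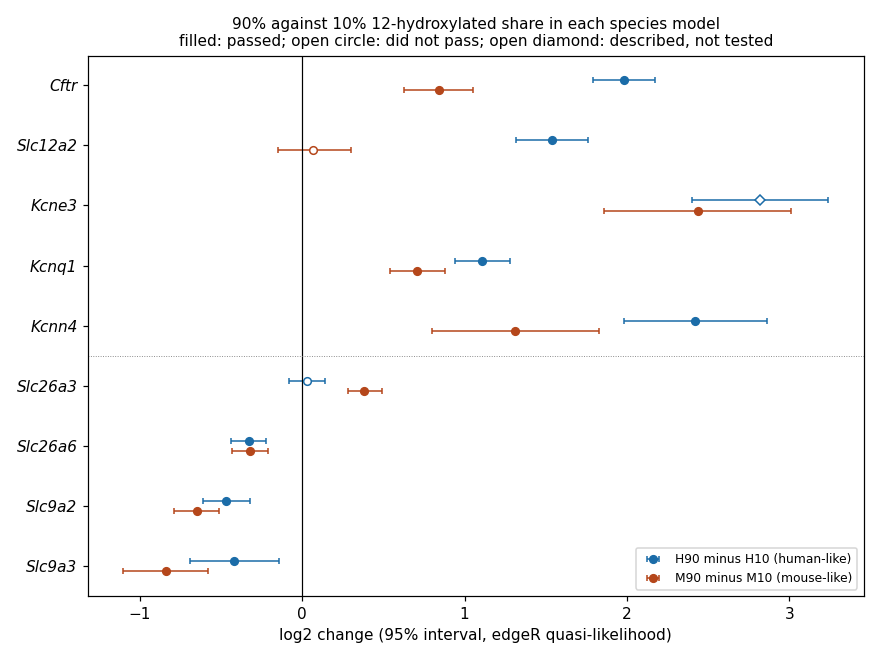
Log2 difference between the 90% and the 10% pool (horizontal axis, 95% interval) for each gene in the human-like (blue) and mouse-like (orange) pools; filled circles passed the test, open circles did not, and the open diamond is Kcne3 in the human-like pools, not tested. Secretory genes lie right of 0, with Slc12a2 at 1.54 in the human-like and 0.07 in the mouse-like pools.

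The effect of the share itself differed between the species models for 5 of 8 tested members, 4 of them higher in the difference of differences (6.92% of all genes were) and 1 lower (7.85%, and 14.8% either way). For Slc12a2 the human-like effect exceeded the mouse-like by 1.46 (SE 0.153, adjusted p = 4.47e-07) and for Cftr by 1.13 (SE 0.139, adjusted p = 1.70e-07). For Kcnn4 the excess was 1.11 (SE 0.331, adjusted p = 0.0244). That call was lost with DESeq2 (adjusted p = 0.0548), limma-voom (0.0821), H90 a alone (0.0580) and without any of H10 b, H90 a, H90 c, M10 a, M10 b or M90 b (0.0547 to 0.160). For Kcnq1 it was 0.40 (SE 0.118, adjusted p = 0.0168), lost without H10 b, M10 a, M90 a or M90 c (0.0521 to 0.0689). Slc26a3 went the other way, at -0.36 (SE 0.0765, adjusted p = 9.56e-04). Slc9a3 did not pass, at 0.42 (95% interval 0.05 to 0.80, adjusted p = 0.130). Nor did Slc9a2, at 0.19 (95% interval -0.01 to 0.39, adjusted p = 0.224), or Slc26a6, at -0.01 (95% interval -0.16 to 0.15, adjusted p = 0.973). Slc9a2 did pass without M10 c (0.27, adjusted p = 0.0260). Kcne3, not tested, stood at 0.38 (95% interval -0.39 to 1.16), or 0.72 without M90 b.

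Comparing species models at a fixed share asks whether the mouse-like mixture acted otherwise than the human-like. At the 10% share, 3 of 8 tested members were higher in M10 than in H10 (18.2% of all genes were) and 3 lower (18.1%, and 36.3% either way). The higher were Slc9a3, 0.77 (SE 0.129, adjusted p = 8.25e-06), Slc9a2, 0.47 (SE 0.0688, adjusted p = 3.09e-06), and Slc26a6, 0.36 (SE 0.0534, adjusted p = 8.80e-07). The lower were Cftr, -0.80 (SE 0.104, adjusted p = 8.10e-08), Kcnn4, -1.22 (SE 0.252, adjusted p = 4.15e-04), and Kcnq1, -0.48 (SE 0.0859, adjusted p = 2.70e-05). With library set as a term Kcnn4 (-1.01, adjusted p = 0.0863) and Kcnq1 (-0.40, adjusted p = 0.0626) were lost. Slc12a2 did not pass, at -0.16 (95% interval -0.38 to 0.07, adjusted p = 0.298). Nor did Slc26a3, at 0.09 (95% interval -0.02 to 0.20, adjusted p = 0.204), though it did without M10 a (0.15, adjusted p = 0.0449). The difference of Kcne3, not tested, was -2.13 (SE 0.292).

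At the 90% share all 9 members differed between M90 and H90, 4 higher (19.2% of all genes were) and 5 lower (19.5%, and 38.8% either way). Kcne3 is among the 5, and its p-value here may not be free of the choice of the gene, made with earlier results known. The 5 secretory genes were the lower ones: Kcne3 at -2.51 (SE 0.200, adjusted p = 7.17e-13), Kcnn4 at -2.32 (SE 0.210, adjusted p = 1.95e-09), Cftr at -1.93 (SE 0.0931, adjusted p = 1.51e-18), Slc12a2 at -1.62 (SE 0.106, adjusted p = 2.78e-11) and Kcnq1 at -0.88 (SE 0.0814, adjusted p = 3.25e-11). Of the absorptive genes, Slc26a3 was higher by 0.45 (SE 0.0542, adjusted p = 1.66e-08), Slc26a6 by 0.37 (SE 0.0543, adjusted p = 7.18e-07) and Slc9a2 by 0.29 (SE 0.0703, adjusted p = 0.00176). Slc9a2 was lost with H90 a alone (adjusted p = 0.0788). Slc9a3, at 0.34 (SE 0.135, adjusted p = 0.0411), was lost without any of the 3 H90 libraries, M90 a or M90 b (adjusted p = 0.0550 to 0.213) and in 7 of the 12 other alternatives (0.0606 to 0.180). H90 b and c share the library set of M90. Without H90 a the log2 differences of the secretory genes ran from -2.61 (Kcne3) to -0.85 (Kcnq1).

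The other genes of epithelial salt and water transport came from a list of 119, of which 91 passed the filter. In H10, 30 of the 91 rose and 17 fell (33.0% and 18.7% of the list, against 24.0% and 24.5% of all genes), with a median log2 change of 0.14. In H90, 12 rose and 13 fell (13.2% and 14.3%, against 11.7% and 9.86%, median 0.03). M10 gave 43 rises and 19 falls (47.3% and 20.9%, against 31.2% and 33.3%, median 0.30), and M90 gave 40 and 17 (44.0% and 18.7%, against 26.2% and 28.5%, median 0.24). Scaled by library size alone, rises and falls were 24 and 22 in H10, 11 and 16 in H90, 30 and 26 in M10 and 28 and 26 in M90. With library set as a term they were 9 and 7 in H90, 35 and 10 in M10 and 26 and 8 in M90. The 13 falls in H90 were also 8 without vehicle a and 8 with H90 a alone.

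Between shares, 13 of the 91 were higher and 28 lower in H90 than in H10 (14.3% and 30.8%, against 18.2% and 18.4% of all genes). The higher were 8 without H10 b, and with library set as a term 7 were higher and 20 lower. In M90 against M10, 14 were higher and 38 lower (15.4% and 41.8%, against 21.3% and 20.0%). Scaled by library size alone these comparisons gave 15 and 20, and 21 and 23. M10 against H10 gave 34 higher and 10 lower (37.4% and 11%, against 18.2% and 18.1%). There the counts were 23 and 19 when scaled by library size alone and 18 and 4 with library set as a term, and the lower were 6 without M10 c. M90 against H90 gave 31 higher and 9 lower (34.1% and 9.89%, against 19.2% and 19.5%), or 26 and 12 when scaled by library size alone.

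**Figure D5:**
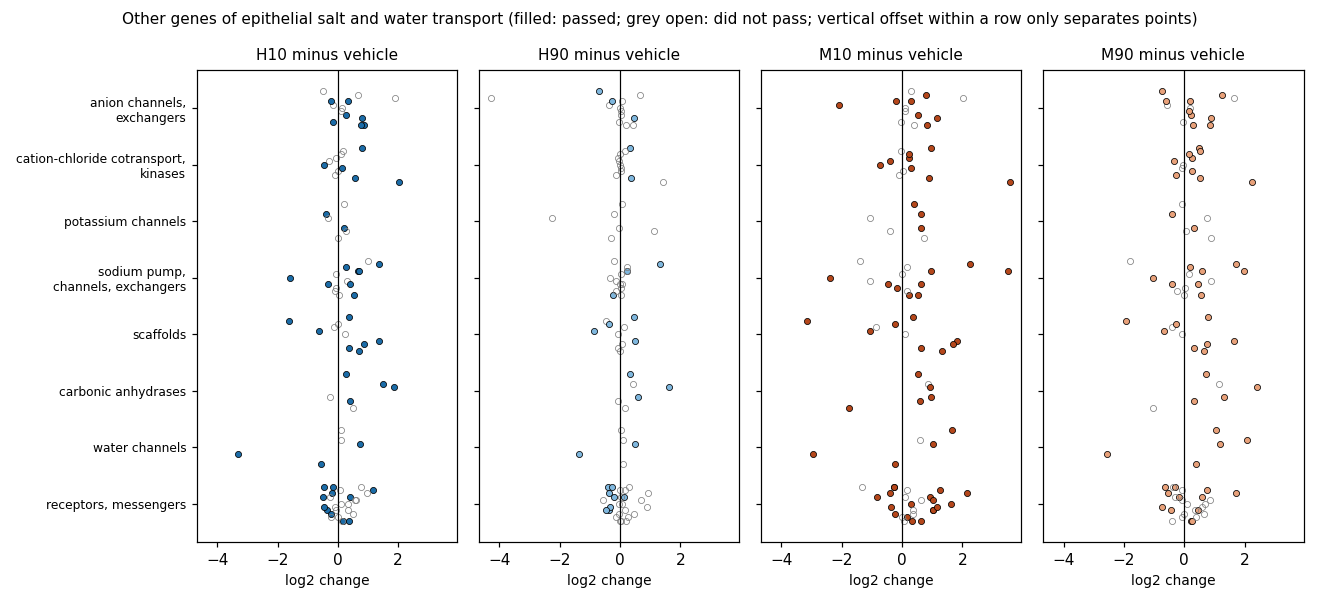
Log2 change against vehicle (horizontal axis) of the 91 other salt and water transport genes, in rows by kind and in 1 panel per pool; filled points passed the test and grey open points did not. Filled points right of 0 outnumber those left of 0 in H10 (30 and 17), M10 (43 and 19) and M90 (40 and 17), and not in H90 (12 and 13).

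Aqp4, a basolateral water channel, went the way of the secretory genes. Its level was 35.2 ± 0.784 CPM (SD, n = 3) in vehicle, 13.6 ± 3.85 in H90, 6.02 ± 1.23 in M90, 4.48 ± 1.32 in M10 and 3.53 ± 0.376 in H10. Its log2 change was -3.31 (SE 0.203, adjusted p = 4.59e-16) in H10 and -1.35 (SE 0.179, adjusted p = 3.76e-07) in H90. Shank2, a scaffold of apical transporters, fell in M10 (-3.14, SE 0.380), M90 (-1.94, SE 0.349) and H10 (-1.61, SE 0.342), as did Slc9a5, a sodium and proton exchanger (-2.38, -1.03 and -1.59, SEs 0.381, 0.352 and 0.364). Both had low levels, Shank2 with 7.51 ± 2.13 CPM in vehicle and 0.837 ± 0.199 in M10, and Slc9a5 with 5.14 ± 1.17 and 0.960 ± 0.556. In H90 the largest falls after Aqp4 were those of Pdzk1ip1 (-0.87, SE 0.160) and Clca1, a goblet cell product (-0.70, SE 0.227).

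On the other side, Pdzk1, a scaffold that binds apical exchangers, was at 46.3 ± 1.53 CPM in vehicle, 119 ± 10.7 in H10 and 162 ± 5.51 in M10. It rose by 1.37 (SE 0.0781) in H10 and 1.81 (SE 0.0780) in M10, and less in H90 (0.51, SE 0.0799). In M90 it was at 144 ± 16.4 CPM, with a range that overlapped that of M10. Slc9a4, another sodium and proton exchanger, rose in all 4 pools, by 1.36, 1.32, 2.24 and 1.72 in H10, H90, M10 and M90 (SEs 0.193 to 0.198). Car12, a membrane carbonic anhydrase, rose most in M90, from 15.2 ± 0.189 to 81.0 ± 6.88 CPM (2.41, SE 0.103), and also in H10 (1.86, SE 0.104), H90 (1.64, SE 0.105) and M10 (0.93, SE 0.105). Car4, another, rose in M90 by 1.31 (SE 0.166), in M10 by 0.96 (SE 0.166) and in H90 by 0.59 (SE 0.170), and did not pass in H10 (-0.27, SE 0.175, adjusted p = 0.220). Sgk1, a kinase that raises sodium uptake, was at 7.53 ± 0.191 CPM in vehicle, 85.3 ± 3.12 in M10 and 29.8 ± 1.14 in M90, changes of 3.50 (SE 0.127) and 1.98 (SE 0.127). It also rose in H10, to 12.3 ± 1.03 CPM (0.70, SE 0.134), and did not pass in H90 (0.22, SE 0.141, adjusted p = 0.297). Aqp3, a water and glycerol channel, rose in M90 (2.07, SE 0.332), from a low level of 1.74 ± 0.428 CPM in vehicle to 7.22 ± 0.713.

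Chosen after their values were seen, 3 further genes bear on the same machinery. Ano1, the calcium-activated chloride channel, rose from 13.2 ± 0.589 CPM in vehicle to 24.0 ± 1.20 in H10 (0.86, SE 0.116, adjusted p = 8.00e-08) and 23.6 ± 0.630 in M10 (0.84, SE 0.116), and did not pass in H90 (0.19, SE 0.120, adjusted p = 0.282). In M90 its rise was 0.30 (SE 0.118, adjusted p = 0.0273). Atp1b1, the β subunit of the sodium pump that powers both directions, rose by 0.66 in H10 and 0.96 in M10 (SEs 0.0387 and 0.0389). It also rose in H90, by 0.23 (SE 0.0386), and in M90 it was at 2521 ± 78.7 CPM, against 1668 ± 51.7 in vehicle. Slc9a3r1, the scaffold NHERF1 that anchors NHE3 and CFTR, rose by 0.69 in H10 and 1.32 in M10 (SEs 0.0415 and 0.0419), and was at 0.00 in H90 (SE 0.0416, adjusted p = 0.959). In M90 it was at 840 ± 4.78 CPM, against 530 ± 14.6 in vehicle and 853 ± 10.2 in H10.

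Over the 15 libraries, which share the 5 groups and the vehicle controls, log2 levels of the 5 secretory genes correlated with each other at Pearson's r of 0.91 to 0.99, described here without a test. Secretory and absorptive genes correlated at -0.95 (Kcne3 with Slc9a2) to -0.61 (Kcne3 with Slc26a3). Slc26a3 stood apart among the absorptive genes, at 0.20 with Slc9a3, 0.35 with Slc26a6 and 0.47 with Slc9a2, while the latter 3 correlated at 0.87 to 0.92. Among all genes of at least 2 CPM, the profiles most like that of Kcne3 were Impdh2 (r = 0.994), Mcm3 (0.993), Rasa3 (0.993), Ncapd2 (0.992) and Npm1 (0.992). Mcm3 had group means of 63.0 CPM in vehicle, 43.0 in H90, 9.25 in M90, 9.01 in H10 and 2.87 in M10. For Cftr they were Cps1 (0.995), Rrm1 (0.994) and Fen1 (0.993). For Slc12a2 they were Rangap1 (0.987), Olfm4 (0.987) and Nup107 (0.985), for Kcnq1 Rasa3 (0.991), Rrm1 (0.990) and Cps1 (0.988), and for Kcnn4 Nup85 (0.993), Hopx (0.988) and Tk1 (0.988). The absorptive genes had other neighbours. Slc26a3 was most like Eci2 (0.987), Acaa2 (0.986) and Mgll (0.986), and Slc26a6 like Cyp4v3 (0.986) and Stat3 (0.976). Slc9a2 was most like Ctsl (0.993), Cldn4 (0.989) and B4galnt2 (0.989), and Slc9a3 like Slc3a1 (0.985), Cgn (0.983) and Emp1 (0.979).

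On GRCm38 (GENCODE vM21) the 9 are protein-coding genes on the plus strand. Cftr lies at chromosome 6, 18170687 to 18322768, Slc12a2 at chromosome 18, 57878678 to 57946821, and Kcne3 at chromosome 7, 100176502 to 100184869. Kcnq1 lies at chromosome 7, 143106362 to 143427042, Kcnn4 at chromosome 7, 24370263 to 24386690, and Slc26a3 at chromosome 12, 31390871 to 31473917. Slc26a6 lies at chromosome 9, 108853283 to 108913049, Slc9a2 at chromosome 1, 40680574 to 40769273, and Slc9a3 at chromosome 13, 74121457 to 74169442. Exons of 3 members overlap antisense genes: Cftr and Gm15592 share 129 bases, Kcnq1 and Kcnq1ot1 121, and Kcne3 and Gm34821 9. The strand setting of the counts was not given, so reads from these stretches cannot be told apart.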

How the data were processed

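RNA of 15 organoid libraries (5 groups of 3) was sequenced after poly-A selection and TruSeq preparation, per the labels' protocols. Tools named in the submitters' processing notes are featureCounts 1.5.0-p3, STAR 2.5.2b and bcl2fastq 2.17, and the build named there is mm10 (GRCm38). Each library has 1 deposited file of raw counts by gene symbol, not normalized. Which annotation and strand setting were used is not given in the sources used here.

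Counts were filtered by filterByExpr (13159 symbols kept), scaled by TMM and tested with edgeR's quasi-likelihood F test (robust, two-sided) in 1 model of all 5 groups (10 residual degrees of freedom). A call is an adjusted p under 0.05 (Benjamini-Hochberg, all genes of the fit). CPM use TMM-scaled totals, and log2 profiles for likeness a prior count of 3. Standard errors come from the quasi-likelihood F. Versions were edgeR 4.0.16, DESeq2 1.42.0 and limma 3.58.1 under R 4.3.3, with figures from matplotlib 3.10.9 (python 3.11.15). The test was tried on simulated data.

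The members, gene lists and alternatives were chosen with earlier results of these data known. Of the transport list, the 3 largest changes each way per pool were named among called genes with a mean of at least 2 CPM and ranges that did not overlap vehicle. The 3 (Kcne3: 5) most correlated genes of at least 2 CPM were named for each member, unnamed predicted genes passed over. Some genes of these lists are not reported here. H90 a alone, without H90 b and c, was an added alternative. Replicate letters were not used as pairs, since the labels do not state that they pair libraries. Residual profiles of libraries with a shared letter correlated at -0.0237 to 0.0829 (median 0.00499, 30 pairs). Those of libraries with different letters correlated at -0.0579 to 0.0500 (median -0.00305, 60 pairs).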

Additional observations from a re-analysis of the deposited data

Results flagged for a closer look

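For 5 members the difference between the 90% and the 10% 12α-hydroxylated pool was not the same in both species models. The test was that of the difference of differences (edgeR quasi-likelihood), and the pools are compared as mixtures. The human-like minus the mouse-like effect, on the log2 scale, was 1.46 for Slc12a2, 1.13 for Cftr, 1.11 for Kcnn4, 0.40 for Kcnq1 and -0.36 for Slc26a3. The human-like effect sets H90, whose libraries fall in both library sets, against H10, while the mouse-like effect lies within 1 set. These 5 of 8 tested members stand beside 14.8% of all genes. With library set as a term 5 passed, and without H10 b or M10 a 3 did. Kcnn4 lost its call in 9 of 27 alternatives and Kcnq1 in 4, while Slc12a2, Cftr and Slc26a3 passed in all 27. Slc12a2 is the member that rose with the share in the human-like pools (1.54, SE 0.106) without passing in the mouse-like pools (0.07, SE 0.110).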

How the results depend on the processing

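Over 27 alternatives, 2187 values of single members were recomputed and none of the called or described ones changed sign; 9 uncalled ones did, 50 calls were lost and 3 gained. With library set as a term fewer of all genes passed: 1069 in H90, 3958 in M90 (each against vehicle) and 2025 in M10 against H10, in place of 2840, 7199 and 4779. The transport list then gave 16 calls in H90, 34 in M90, 27 in H90 against H10 and 22 in M10 against H10, in place of 25, 57, 41 and 44. With H90 a as the only H90 library 1220 of all genes passed in H90 against vehicle. The cause of these drops was not tested, and a set term leaves vehicle and the mouse-like pools linked through H90 alone. Leaving out 1 library gave 3 to 6 members called for the effect of share by species model, in place of 5, with 3 without H10 b or M10 a. No alternative moved the other totals of members called by more than 1.5 times. By direction, the 2 higher in H90 became 1 in 8 alternatives (library set, limma-voom, H90 a alone, and without vehicle a, vehicle c or any H90 library). The 3 lower in M10 against H10 became 1 with library set as a term, and the 4 higher in M90 against H90 became 2 with H90 a alone. The fit with the replicate block (letters a, b and c) gave 7, 6, 8 and 7 members in H10, H90, M10 and M90 against vehicle, as without it, and 2931 of all genes in H90. Of the 15 libraries 11 correlated best with their own letter, a hint from the data only. Depth limits Kcne3 in M10, where 10 to 17 counts stand behind each value.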
